A study of Mus musculus with 12 samples.

Results

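Male OT-1 CD8+ T cells in which Kdm5d had been targeted with Cas9 were compared with cells given the guide RNA alone, over all genes outside the X and Y chromosomes. OT-1 T cells come from mice that carry transgenes for 1 T cell receptor, which recognises a peptide of ovalbumin on the class I molecule H-2Kb. The comparison took 6 of the 12 samples of the series, chosen by their titles: 3 called KD, electroporated with Cas9 and a guide against Kdm5d, and 3 called WT, electroporated with guide and no Cas9. Both groups were male, came from a batch of their own, and were grown for 3 days in medium with mouse recombinant IL2. Whether this batch had first been stimulated through CD3 and CD28, and how many mice or edited cells it held, are not given in the sources used here, so p-values measure only the spread between these samples, which may be technical. Cas9 was never given without the guide, and effects of Cas9 and of lower Kdm5d therefore cannot be told apart in any value below. In such bulk RNA, fewer cells of a type and less RNA per cell cannot be told apart either.

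KDM5D is a Y-linked member of the KDM5 family of histone demethylases, which remove methyl groups from lysine 4 of histone H3, a mark of active promoters and enhancers. Activated CD8+ T cells turn from small circulating cells, which enter lymph nodes with the help of the chemokine receptor CCR7, into dividing effector cells that kill with granzymes and perforin and follow inflammatory chemokines into tissue. That change is driven by the T cell receptor, cytokines such as IL2 and transcription factors that include T-bet, RUNX3 and IRF4, and it calls for aerobic glycolysis, new ribosomes and nucleotides.

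Kdm5d itself, at chrY:897788-956786 (GRCm38), was examined first. It was at 48.4, 51.9 and 52.4 counts per 1000000 (CPM) in the WT samples and at 21.4, 21.8 and 22.9 in the KD samples. The groups did not overlap, and KD held 43.3% of the WT mean (log2 fold change -1.21, SE 0.045, edgeR adjusted p 3.13e-08). By an exact two-sided permutation test the p was 0.1, the smallest that 3 samples against 3 allow.

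Libraries held between 78748647 and 110803318 counts. The first principal component separated the groups and took 40.8% of the variance. The second, with 17%, set KD replicate 1, the smallest library, apart from the other KD samples. Without that sample 2822 autosomal genes rose and 3275 fell, and 732 changes reached 1 log2 unit, against 3283, 3639 and 776 with all 6 samples. All 14 listed CD8 T cell genes were tested, and their summed level was 5720 to 5800 CPM in WT and 5320 to 5500 in KD. Markers of other cells were partly present. Of 12 B cell markers 4, among them Ms4a1, Cd22 and Igkc, had 0 counts in all 6 samples, and the list summed to 256 to 261 CPM in WT and 299 to 305 in KD, nearly all of it Ighm. Of 12 macrophage markers 4, among them Adgre1 and C1qa, were at 0 (sums of 6.20 to 7.12 and 4.63 to 5.47), and of 12 neutrophil or mast cell markers 5, S100a8 and S100a9 included (9.02 to 10.1 and 11.8 to 12.9). Of 9 markers of CD4 or regulatory T cells 7 lie on autosomes, and 4 of those were tested, of which 2 rose, 1 fell and 1 was not called. Foxp3 and Cd40lg, on the X chromosome, were left out of these counts but not of the sum below. Il17a, not among those tested, had 0 counts in all 6 samples. The list summed to 46.6 to 49.4 CPM in WT and 47.9 to 50.9 in KD, most of it Zbtb7b. Of 10 erythroid or platelet markers 4, the adult hemoglobin genes, were at 0. The part of such cells in the results was not tested.

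Of 19702 autosomal genes tested, 3283 were higher in KD (16.7%) and 3639 were lower (18.5%) at an edgeR adjusted p under 0.05. Together these 6922 calls were 35.1% of the genes. Most changes were small, with a median absolute log2 fold change of 0.31 among called genes. In 9229 genes (46.8%) the KD and WT samples did not overlap. A log2 fold change of at least 1, a doubling or its reverse, was reached by 442 genes that were higher (2.24%) and 334 that were lower (1.7%). The large rises and the large falls differed in abundance. Of the rises, 346 had a mean under 1 on the log2 CPM scale and 96 were above it, whereas 199 of the falls were under and 135 above. Among the 2273 genes with a mean of at least 100 CPM, 0 rose and 14 fell by 1 log2 unit or more, and of all changes in that class 617 genes (27.1%) were higher and 1026 (45.1%) lower. A test against a minimum change of 1 log2 unit (edgeR glmTreat) called 61 genes higher and 86 lower.

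**Figure D1:**
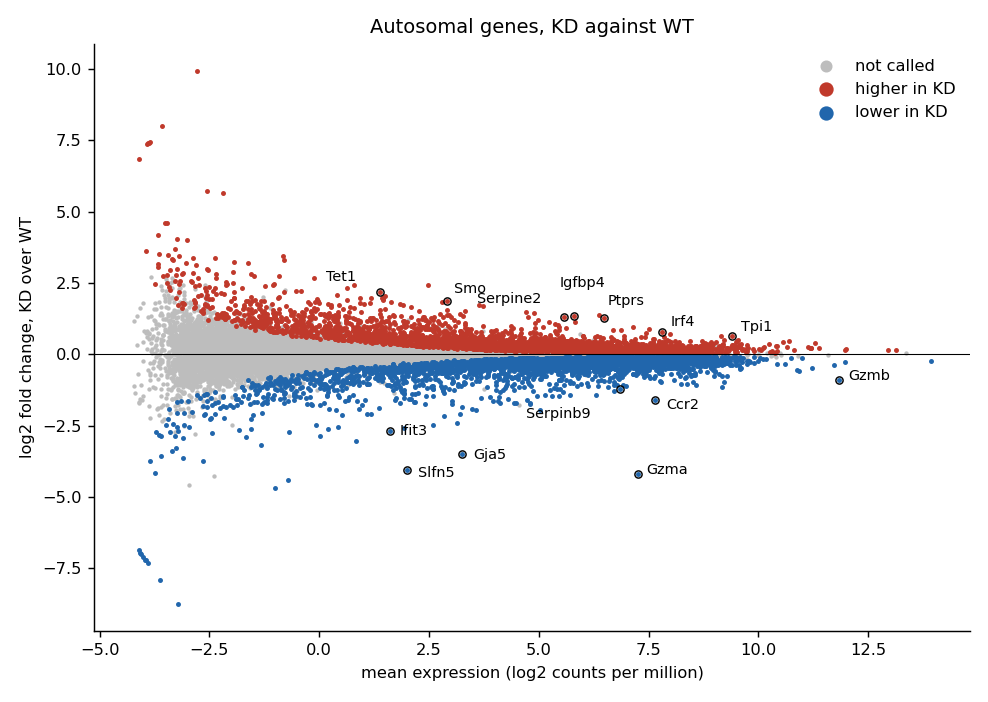
Each point is an autosomal gene, with its mean expression in log2 CPM on the x axis and the log2 fold change of KD over WT on the y axis. Red genes were called higher and blue genes lower at an adjusted p under 0.05, grey genes were not called, and Gzma stands out below the abundant genes at -4.19.

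The share of genes called ran from 30.6% on chromosome 13 to 41.2% on chromosome 19. Among protein-coding genes 22.1% were higher and 25.9% lower. Processed pseudogenes, which are copies of spliced transcripts whose reads can come from their parent genes, had 216 higher and 60 lower of 2209. Long intergenic RNAs had 38 higher and 67 lower of 611, and antisense transcripts 31 higher and 74 lower of 1172. Of the genes with large changes, 7 had 0 counts in every WT sample and 9 had 0 counts in every KD sample. Cacna1g, a calcium channel gene, had 165 counts over the WT samples and 0 over the KD samples, which makes it at least 50.4-fold lower against a floor of 3 counts over the group. It was named after its value had been seen.

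Where mean expression was 1 or more on the log2 CPM scale, the largest fall was that of Gzma, which encodes the cytotoxic protease granzyme A. The gene spans chr13:113093825-113100981 on the minus strand. Gzma was at 647, 652 and 648 CPM in WT and at 34.4, 36.4 and 36.1 in KD. The groups were far apart, with an 18.2-fold difference or -4.19 as a log2 fold change (SE 0.026, edgeR adjusted p 9.97e-14). Gja5, the gap junction gene connexin 40, went from 30.5, 34.0 and 32.4 CPM to 2.36, 3.27 and 2.93 (log2 fold change -3.49), and shares 14.2% of its 31-base subsequences with other genes. Slfn5, an interferon-induced member of the schlafen family, went from 16.2, 16.5 and 15.7 CPM to 1.10, 0.783 and 1.05 (log2 fold change -4.05). All 3 genes kept their groups apart without overlap. Ifit3, Rsad2, Oas2, Ifit1, Oasl2, Isg15, Mx2 and Oasl1, also interferon-induced, followed with log2 fold changes from -2.70 to -2.08, and Ifit3, Ifit1 and Isg15 share more than 10% of their subsequences with other genes. The rest of the 15 largest falls were Ccl5, a chemokine made by effector T cells, with -1.96, the clade B serpin gene Serpinb6b with -1.93, the phosphatase subunit gene Ppp2r2c with -1.90 and Acoxl, related to peroxisomal acyl-CoA oxidases, with -1.89.

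The 15 largest rises were of scarcer transcripts. AC151990.1, a processed pseudogene, led them with 2.39, 2.37 and 2.34 CPM in WT and 12.3, 13.1 and 13.3 in KD (log2 fold change 2.44, SE 0.077, edgeR adjusted p 9.03e-09). Tet1, at chr10:62804570-62908996, which encodes an enzyme that oxidises 5-methylcytosine in DNA, went from 1.22, 1.56 and 0.917 CPM to 4.93, 5.62 and 6.20 (log2 fold change 2.18, SE 0.19, edgeR adjusted p 9.37e-06). Smo, at chr6:29735503-29761365, the signal transducer of the Hedgehog pathway, went from 3.67, 4.19 and 3.78 CPM to 14.2, 15.3 and 13.4 (log2 fold change 1.88, SE 0.083, edgeR adjusted p 9.24e-08). In each of these 3 genes every KD sample was above every WT sample. Map3k20, a stress-activated kinase gene, went from 6.57, 6.89 and 6.88 CPM to 23.4, 21.5 and 22.8. Others in the group were Sulf2, an extracellular heparan sulfatase (log2 fold change 2.03), the cytokine gene Il24 (1.99), Nrn1 (1.96, with 22.3% of its exons overlapped by another gene), the inflammasome sensor Nlrp3 (1.95), the calcium sensor Ncs1 (1.92) and Gatm, an enzyme of creatine synthesis (1.84). Cxcr5, Slc4a4, Prodh, Ltbp4 and Eng were between 1.82 and 1.74. The groups of these genes did not overlap, as the naming rule required.

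**Figure D2:**
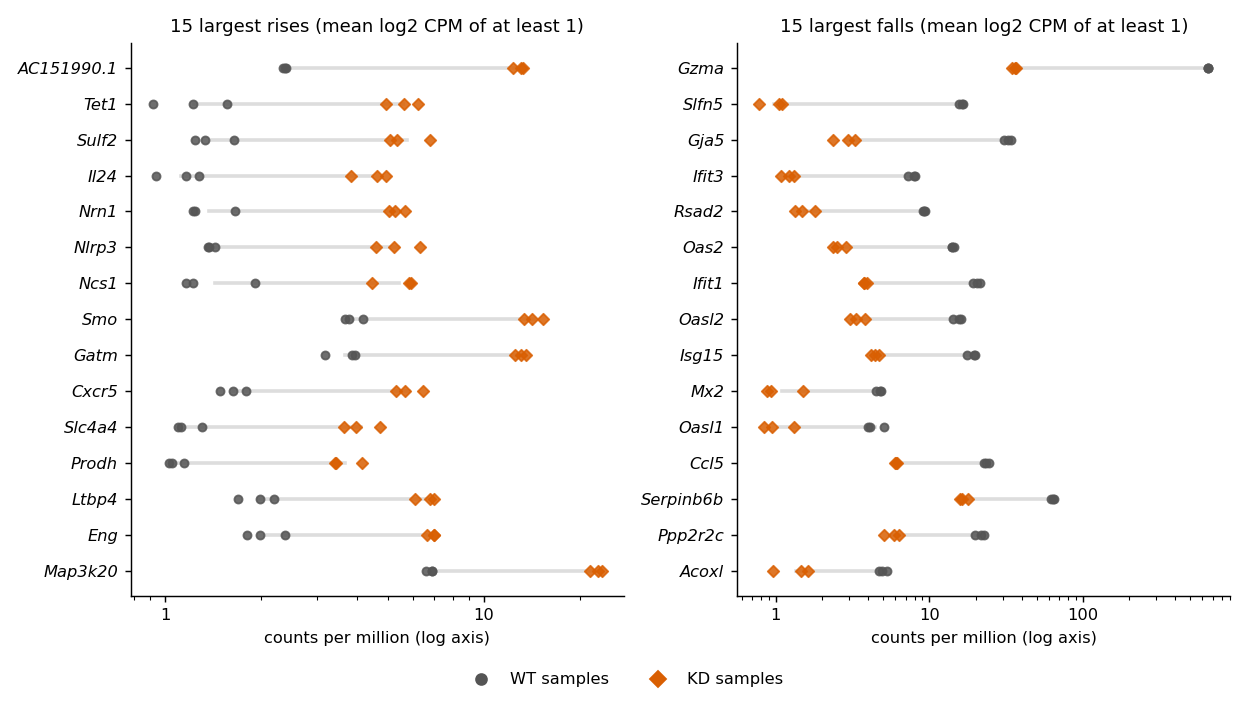
CPM values on a log axis for the 15 genes with the largest rises and the 15 with the largest falls where mean expression reached 1 on the log2 CPM scale. Grey circles are the 3 WT samples, orange diamonds the 3 KD samples, and the bars join the group means: Gzma spans 648.8 to 35.7 CPM, and the rises mostly stay under 15 CPM.

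Among abundant genes, the largest rise was that of Zmat3, a p53-induced RNA-binding protein gene, with 98.3, 99.4 and 106 CPM in WT and 197, 193 and 197 in KD (log2 fold change 0.95). Irf4, a transcription factor induced in proportion to T cell receptor signal, went from 175, 165 and 166 CPM to 293, 295 and 293 (log2 fold change 0.80, SE 0.025, edgeR adjusted p 8.74e-09). Gbp2, Gtse1, Ass1, Mthfd1, Ptp4a3, Tpi1, Ccng1 and Exoc4 were the other leading rises, with log2 fold changes from 0.88 to 0.63. Ass1, the argininosuccinate synthase gene, shares 43.1% of its subsequences with other genes and is uncertain. The abundant falls after Gzma were larger in size. They were led by Ccr2 with -1.59 and included Rnf213 with -1.13, the endocytic adaptor gene Hip1 with -1.10, Lilrb4a, an inhibitory leukocyte receptor gene, with -1.06, and the UDP-sugar receptor gene P2ry14 with -1.06. Lilrb4a shares 55.7% of its subsequences with other genes.

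The killing machinery was mostly lower. Of 22 tested genes of granzymes and the cytotoxic granule, 15 fell (68.2%) and 1 rose. Their median log2 fold change was -0.29, where the median over all tested autosomal genes was 0.011. Counts in this list and those below can be read against 18.5% lower and 16.7% higher over all tested autosomal genes. Over protein-coding genes the shares were 25.9% and 22.1%, and at 100 CPM or more 45.1% and 27.1%. Gzmb, encoding granzyme B, was at 5040, 4910 and 4960 CPM in WT and at 2660, 2770 and 2690 in KD, which left 54.4% of the WT mean. Prf1, the pore-forming perforin, went from 64.1, 64.9 and 65.6 CPM to 26.7, 29.5 and 27.7 (log2 fold change -1.21). Neither gene had overlapping groups. Serpinb9, whose product protects killer cells from their own granzyme B, went from 173, 172 and 179 CPM to 74.5, 74.8 and 75.1 (log2 fold change -1.22, SE 0.025, edgeR adjusted p 1.97e-09). Gzmk, a scarce granzyme transcript, went from 2.87, 2.85 and 2.83 CPM to 0.0375, 0.184 and 0.166. The release factor genes Stx11 and Unc13d had log2 fold changes of -0.97 and -0.30. Srgn, the granule proteoglycan, did not pass the test (0.04). Prf1, Gzmk, Stx11, Unc13d and Srgn were named after their values had been seen.

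Death ligands and cytokines followed the same direction in 8 of 15 tested genes (53.3%), while 2 rose. The median log2 fold change was -0.24, and -0.16 when all counts were divided by 4. Fasl, the ligand of the death receptor FAS, went from 68.8, 67.8 and 69.0 CPM to 31.2, 27.5 and 29.5 (log2 fold change -1.22, SE 0.046, edgeR adjusted p 3.13e-08). Lta and Tnfsf10, which encode lymphotoxin and TRAIL, fell with -0.49 and -0.41. Lif, a cytokine of the IL6 family, rose from 196, 197 and 195 CPM to 262, 272 and 266 (log2 fold change 0.45). Ifng, named after its value had been seen, was low in all samples, at 6.10, 6.68 and 6.86 CPM in WT and 4.76, 5.09 and 4.73 in KD.

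Receptors shared with natural killer (NK) cells fell in 11 of 18 tested genes (61.1%) and rose in 0 (median -0.39). Klrd1, which encodes CD94, went from 117, 116 and 116 CPM to 66.0, 57.1 and 64.8 (log2 fold change -0.89). Slamf7, Fcer1g and Klra5 had log2 fold changes of -0.52, -1.66 and -3.02. Klra5 was scarce, with means of 5.20 CPM in WT and 0.63 in KD, and shares 11.4% of its subsequences with related genes. Of 6 tested NK cell markers 3 fell as well, among them Fcer1g, or 1 without WT replicate 2 or WT replicate 3, and the summed level of that list was 159 to 162 CPM in WT and 159 to 164 in KD. Whether NK cells took part in the change was not tested.

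Promoters of Gzma, of its companion in granule biology Serpinb9 and of the homing receptor Cxcr6 are shown as examples of killing and homing genes that fell. RefSeq promoters (GRCm38.p6) were matched for 10914 gene symbols, and the 250 bases before the RefSeq start are printed, 5′ to 3′ on the gene's strand. Capitals mark matches on either strand to any of 11 short motifs. Gzma lies at chr13:113100982-113101231 on the minus strand, Serpinb9 at chr13:33004291-33004540 and Cxcr6 at chr9:123806227-123806476, both on the plus strand.
Gzma: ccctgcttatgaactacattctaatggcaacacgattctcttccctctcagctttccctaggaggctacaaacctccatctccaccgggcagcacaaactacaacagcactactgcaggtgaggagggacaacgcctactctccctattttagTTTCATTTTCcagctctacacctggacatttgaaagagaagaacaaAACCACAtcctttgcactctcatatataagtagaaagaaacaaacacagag
Serpinb9: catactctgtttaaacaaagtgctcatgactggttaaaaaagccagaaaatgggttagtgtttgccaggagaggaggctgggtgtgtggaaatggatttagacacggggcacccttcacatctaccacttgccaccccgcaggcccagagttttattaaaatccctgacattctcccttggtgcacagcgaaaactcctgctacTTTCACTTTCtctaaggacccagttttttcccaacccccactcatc
Cxcr6: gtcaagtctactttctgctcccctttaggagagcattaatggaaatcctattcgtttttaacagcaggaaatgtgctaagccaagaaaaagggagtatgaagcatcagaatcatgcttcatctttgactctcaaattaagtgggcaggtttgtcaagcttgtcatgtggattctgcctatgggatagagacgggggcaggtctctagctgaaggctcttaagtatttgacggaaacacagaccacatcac

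In the Gzma stretch the capitals are an interferon-stimulated response element pattern (ISRE, GAAA and GAAA with 2 bases between) and a RUNX motif (TGTGGTT), both on the reverse strand. Their first bases lie 97 and 51 bases before the start. Serpinb9 holds an ISRE on the reverse strand 46 bases before its start, which lies 1291 bases from the start of the GENCODE gene. Cxcr6 holds none of the 11 motifs in this window. Over windows from 250 bases before to 50 after the start, ISRE was in 3.17% of the 13829 promoters of tested genes, in 13.2% of the 273 promoters of genes lower by at least 1 log2 unit and in 2.94% of the 408 promoters of genes higher by as much. RUNX was in 3.93%, 6.96% and 1.72% of the same sets, AP-1 (TGANTCA) in 5.42%, 12.8% and 6.37%, and the T-box motif (GGTGTGA) in 3.57%, 7.33% and 3.19%. The ETS motif (CCGGAAG) was in 16.6% of all promoters, 5.49% of those of the large falls and 2.94% of those of the large rises. The SP/KLF motif (GGGCGG) was in 58.6%, 38.1% and 60%. For CRE (TGACGTC) the shares were 5.08%, 2.56% and 4.41%, and for the E-box (CACGTG) 9.36%, 4.76% and 8.09%. NF-Y (CCAAT) was in 37.1%, 35.5% and 26.5%, E2F (TTCCCGC) in 7.83%, 5.49% and 9.07%, and the NF-kappaB motif (GGGA and TTTCC with any base between) in 0.412%, 0.366% and 0. Over the 3548 promoters of all genes called lower, whatever the size of change, ISRE was in 3.78%, RUNX in 4.76% and AP-1 in 6.12%. T-box was in 4%, ETS in 16.7% and SP/KLF in 61.4% of them. Each of these lies nearer to its share over all tested genes than to its share over the large falls. The CRE and E-box patterns read the same or nearly the same on both strands, motifs may overlap each other, and these shares are a description of letters with no test.

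Receptors that set where T cells go changed in both directions. Of 18 tested chemokine and egress receptors 9 fell (50%) and 3 rose (median -0.29, and -0.66 when all counts were divided by 4). Ccr2, a receptor for inflammatory chemokines, went from 349, 351 and 347 CPM in WT to 119, 112 and 118 in KD (log2 fold change -1.59, SE 0.026, edgeR adjusted p 3.71e-10). Cxcr6, a receptor linked to tissue residence, went from 130, 131 and 127 CPM to 45.4, 48.1 and 50.2 (log2 fold change -1.43). Both were at under 50% of their WT means in KD, with no overlap, and both lie on chromosome 9, Ccr2 at chr9:124101950-124113557 and Cxcr6 at chr9:123806475-123811760. S1pr1, the receptor for leaving lymphoid tissue, also fell, from 61.6, 57.5 and 56.8 CPM to 22.9, 26.6 and 24.3 (log2 fold change -1.25), and was named after its values had been seen.

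Ccr7, the receptor of lymph node entry, rose. It went from 25.6, 25.4 and 24.9 CPM to 57.5, 55.1 and 55.7 (log2 fold change 1.15, SE 0.036, edgeR adjusted p 8.74e-09). Every KD sample was above every WT sample. Cxcr5, the receptor for the B cell follicle chemokine, went from 1.79, 1.49 and 1.63 CPM to 5.64, 5.30 and 6.46, and Cxcr4, named after its values had been seen, had a log2 fold change of 0.74. Of 7 tested chemokines 3 rose and 2 fell. Ccl5 went from 23.4, 24.4 and 22.8 CPM to 6.11, 6.09 and 5.96, while Ccl3, Xcl1 and Ccl4 rose from low levels with log2 fold changes of 1.39, 1.06 and 0.62.

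Adhesion and the cytoskeleton were mostly lower. Of 25 adhesion genes 15 fell (60%) and 6 rose (median -0.17). Itgb3, the beta3 integrin chain, went from 151, 142 and 146 CPM to 75.7, 72.7 and 75.6 (log2 fold change -0.97). Itgb2, the common chain of LFA-1, went from 385, 387 and 381 CPM to 243, 264 and 252 (log2 fold change -0.61), and Itgav had -0.48. Of 30 tested genes of the actin cytoskeleton and small GTPase signalling, 23 fell (76.7%) and 0 rose (median -0.20). Prex1, an exchange factor for RAC, went from 541, 551 and 547 CPM to 263, 267 and 258 (log2 fold change -1.06, SE 0.019, edgeR adjusted p 7.91e-10). Myo1f, an unconventional myosin, went from 298, 300 and 296 CPM to 160, 154 and 159, and Vim, the intermediate filament vimentin, from 2790, 2810 and 2760 CPM to 2020, 2030 and 2030. These 3 genes fell without overlap. Rhoa, Cfl1 and Pfn1, named after their values had been seen, were not called and had log2 fold changes of -0.07, -0.07 and 0.05.

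**Figure D3:**
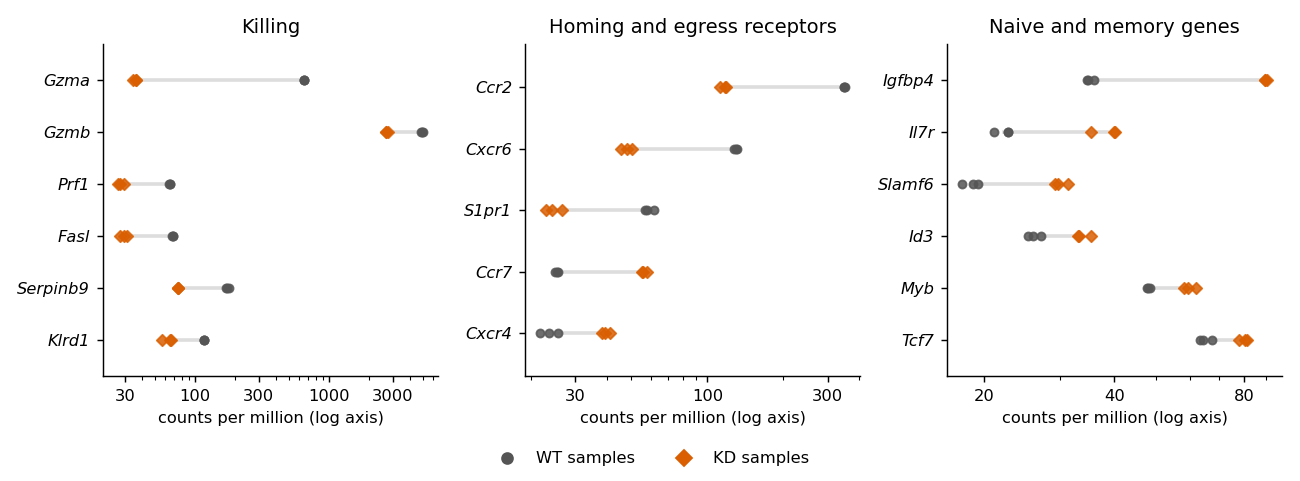
CPM values on a log axis in each sample for genes of killing, homing and egress, and the naive and memory state. Grey circles are WT and orange diamonds KD samples: the killing genes shown, Ccr2, Cxcr6 and S1pr1 were lower in KD. Ccr7, Cxcr4 and the naive or memory genes shown were higher. Several of the genes were picked after their values had been seen, so these shared directions are not a result. Of the 25 naive and memory genes tested 13 rose, 6 fell and 6 were not called.

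Genes typical of naive and memory cells rose in 13 of 25 (52%) and fell in 6 (24%), with a median of 0.10. Igfbp4, an insulin-like growth factor binding protein found in naive T cells, went from 34.6, 35.9 and 34.8 CPM to 89.2, 90.4 and 89.5 (log2 fold change 1.35, SE 0.031, edgeR adjusted p 2.39e-09). Il7r, the receptor for the survival cytokine IL7, was between 21.1 and 22.7 CPM in WT and between 35.3 and 40.2 in KD (log2 fold change 0.80). Tcf7, which encodes the memory transcription factor TCF1, rose by a smaller amount (log2 fold change 0.30). Groups did not overlap in these genes. Slamf6, Id3 and Myb had log2 fold changes of 0.69, 0.38 and 0.31. Txk and Klf3 of the same list fell, with -0.48 and -0.33, and Lef1, Klf2 and Bach2 did not pass the test. Il7r, Slamf6, Myb, Klf3, Lef1, Klf2 and Bach2 were named after their values had been seen. Beside these, the B cell marker Ighm, which naive B cells express, went from a mean of 256.1 to 290.4 CPM.

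Transcription factors of effector cells fell in 13 of 23 genes (56.5%) and rose in 3 (median -0.19). Runx3, a factor of CD8 cell identity and killing, went from 328, 332 and 323 CPM to 201, 211 and 204 (log2 fold change -0.67, SE 0.023, edgeR adjusted p 1.55e-08). Ikzf3, the factor Aiolos, and Stat4, the signal transducer of IL12, had -0.68 and -0.66, with Stat4 uncertain for its overlap with other genes (23.7% shared subsequences). Irf4 ran the other way. Id2 had -0.67 and Tbx21, the gene of T-bet, -0.19, and Eomes, with 0.03, did not pass. Id2, Tbx21 and Eomes were named after their values had been seen.

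Inhibitory receptors fell in 11 of 18 genes (61.1%) and rose in 3 (median -0.37). Havcr2, the gene of TIM-3, went from 25.3, 25.3 and 24.3 CPM to 8.95, 8.65 and 9.00 (log2 fold change -1.49, SE 0.048, edgeR adjusted p 1.01e-08). Cd160 went from 96.6, 97.1 and 98.2 CPM to 48.3, 48.0 and 48.1, and Entpd1, the ectoenzyme CD39, from 67.5, 70.0 and 70.0 CPM to 33.0, 32.2 and 33.1. All 3 were at or below about 50% of WT in KD, and their groups were separate. Pdcd1, encoding PD-1, had a log2 fold change of -0.54 and Ctla4 of 0.42, both named after their values had been seen. Costimulatory receptors were divided, with 8 higher and 7 lower of 18. Tnfrsf9, encoding 4-1BB, fell from 572, 586 and 576 CPM to 407, 423 and 411. Tnfrsf4, encoding OX40, rose from 4.03, 3.49 and 3.64 CPM to 6.43, 7.65 and 7.66.

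Genes of tissue residence and the response to TGF-beta fell in 15 of 23 (65.2%) and rose in 4 (median -0.35). Cdh1, encoding E-cadherin, went from 59.1, 56.0 and 58.8 CPM to 21.7, 21.4 and 21.4 (log2 fold change -1.43, SE 0.037, edgeR adjusted p 3.60e-09). Cd69, which holds cells in tissue by removing S1PR1 from the surface, went from 130, 134 and 134 CPM to 70.7, 70.0 and 68.1 (log2 fold change -0.93). Serpine2, a protease inhibitor gene, rose from 29.4, 30.7 and 30.9 CPM to 76.9, 74.4 and 73.2 (log2 fold change 1.30). Groups of these 3 genes did not overlap. Itgae, the CD103 integrin, and the receptor gene Tgfbr2 had -0.79 and -0.52, and Tgfbr3 had 0.90. Itgae, Tgfbr2 and Tgfbr3 were named after their values had been seen. Among secreted and matrix genes, where 8 rose and 7 fell of 22, the ligand gene Tgfb3 fell from 27.5, 27.1 and 27.6 CPM to 8.97, 8.77 and 8.81, and Lgals3, encoding galectin 3, from 480, 465 and 478 CPM to 225, 242 and 223. The median of that list changed sign between alternative settings.

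The T cell receptor complex and its proximal signalling genes were lower as a group by small amounts. Of 30 tested, 26 fell (86.7%) and 1 rose, with a median of -0.25. In the class of genes at 100 CPM or more, 45.1% fell. Ptprc, the phosphatase CD45, went from 2390, 2380 and 2370 CPM to 1630, 1560 and 1620 (log2 fold change -0.57, SE 0.017, edgeR adjusted p 6.72e-09). Lck, the kinase that starts receptor signalling, went from 762, 763 and 759 CPM to 587, 603 and 596 (log2 fold change -0.36). Grap2 and Prkcq had -0.33 and -0.41. No member reached a change of 1 log2 unit. Among receptor-type phosphatases, Ptprs rose against the direction of Ptprc, from 58.1, 58.0 and 55.9 CPM to 137, 139 and 142 (log2 fold change 1.28, SE 0.028, edgeR adjusted p 2.29e-09).

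Early response genes were divided, with 14 of 27 lower (51.9%) and 6 higher (median -0.20). Among genes at 100 CPM or more 45.1% were lower. Fosl2, an AP-1 subunit, went from 247, 251 and 242 CPM to 137, 140 and 137 (log2 fold change -0.84), and Dusp6 and Dusp5, feedback phosphatases of ERK signalling, had -0.73 and -0.67. Egr3, a zinc finger factor induced by receptor signal, rose from 3.84, 4.90 and 4.35 CPM to 11.8, 13.7 and 12.9 (log2 fold change 1.55, SE 0.10, edgeR adjusted p 1.34e-06). Egr1, Egr2 and Jun, named after their values had been seen, rose with 0.63, 0.98 and 0.40. Fos, Fosb and Nr4a1, also named afterwards, were at means under 7 CPM and did not pass. In the NF-kappaB list 13 of 26 fell (50%) and 5 rose, again near that 45.1%. Bcl3, a nuclear cofactor of that pathway, went from 37.7, 38.0 and 38.9 CPM to 20.4, 19.6 and 18.0.

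Of the IL2 receptor and STAT5 response, 15 of 24 genes fell (62.5%) and 3 rose (median -0.10). Il2rb, the beta chain that binds IL2 and IL15, went from 2270, 2280 and 2240 CPM to 1490, 1610 and 1510 (log2 fold change -0.56). Il2ra, the alpha chain, named after its value had been seen, was at a mean of 1407 CPM in WT and 1442 in KD and did not pass the test (log2 fold change 0.04, edgeR adjusted p 0.059). Bcl2l1, the survival gene BCL-XL, went from 137, 140 and 138 CPM to 88.0, 94.2 and 91.3 (log2 fold change -0.60). In a list of cytokine receptors that also holds Il2ra, Il2rb and Il7r, 11 of 22 genes fell (50%) and 6 rose. Ifngr1 was at -0.64, Il12rb2 at -0.49 and Il18rap at -0.81. These are chains of the receptors for interferon gamma, IL12 and IL18. Exons of Il12rb2 are overlapped over 40% of their length by another gene.

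Protein synthesis genes rose together by small amounts. Of 43 cytosolic ribosomal protein genes 40 rose (93%) and 0 fell, with a median log2 fold change of 0.27, against 27.1% higher among genes at 100 CPM or more. Rps19 went from 505, 515 and 481 CPM to 694, 713 and 701 (log2 fold change 0.49), and Rplp0 from 2020, 2030 and 2050 CPM to 2440, 2430 and 2460. Many ribosomal protein genes have pseudogene copies that can split reads, and Rplp0 and Rps16 share 42.8% and 38% of their subsequences. Of 35 genes of ribosome biogenesis and the MYC response 27 rose and 4 fell (median 0.23). Utp20, a ribosome assembly factor, went from 130, 130 and 128 CPM to 198, 193 and 202 (log2 fold change 0.61, SE 0.024, edgeR adjusted p 3.91e-08). Mxd1 and Mxd4, which compete with MYC for its partner MAX, fell. Mxd1 went from 74.5, 72.3 and 71.9 CPM to 26.3, 26.6 and 27.6 (log2 fold change -1.44), and Mxd4 had -1.18. Myc itself, named after its value had been seen, had 0.12 (edgeR adjusted p 0.048).

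Glycolysis and nucleotide synthesis were higher. Of 24 identifiers tested for glycolysis and glucose transport, 17 rose and 3 fell (median 0.33). Tpi1, triose phosphate isomerase, went from 527, 539 and 538 CPM to 835, 859 and 823 (log2 fold change 0.65, SE 0.020, edgeR adjusted p 7.25e-09). Pfkl, the liver form of phosphofructokinase, went from 162, 162 and 164 CPM to 242, 240 and 236, and Ldha, lactate dehydrogenase, from 1400 CPM in each WT sample to 1920, 1980 and 1920. The samples of these genes did not overlap, though Tpi1 and Ldha share 10.3% and 19.6% of their subsequences with other genes. Hk2, a hexokinase, fell (-0.38), and the glucose transporter Slc2a1 did not pass (0.06), both named after their values had been seen. Of 26 hypoxia response genes 15 rose and 5 fell (median 0.20), with Egln3, an oxygen-sensing hydroxylase, at 30.6, 32.2 and 32.8 CPM in WT and 61.0, 58.7 and 64.1 in KD. Of 25 genes of nucleotide synthesis 19 rose and 1 fell (median 0.23). Mthfd1, which makes folate carriers of single carbon units, went from 136, 131 and 137 CPM to 228, 224 and 223 (log2 fold change 0.74). Cad, which starts pyrimidine synthesis, went from 419, 425 and 418 CPM to 558, 578 and 566, and Atic and Pfas of purine synthesis had 0.49 and 0.46.

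**Figure D4:**
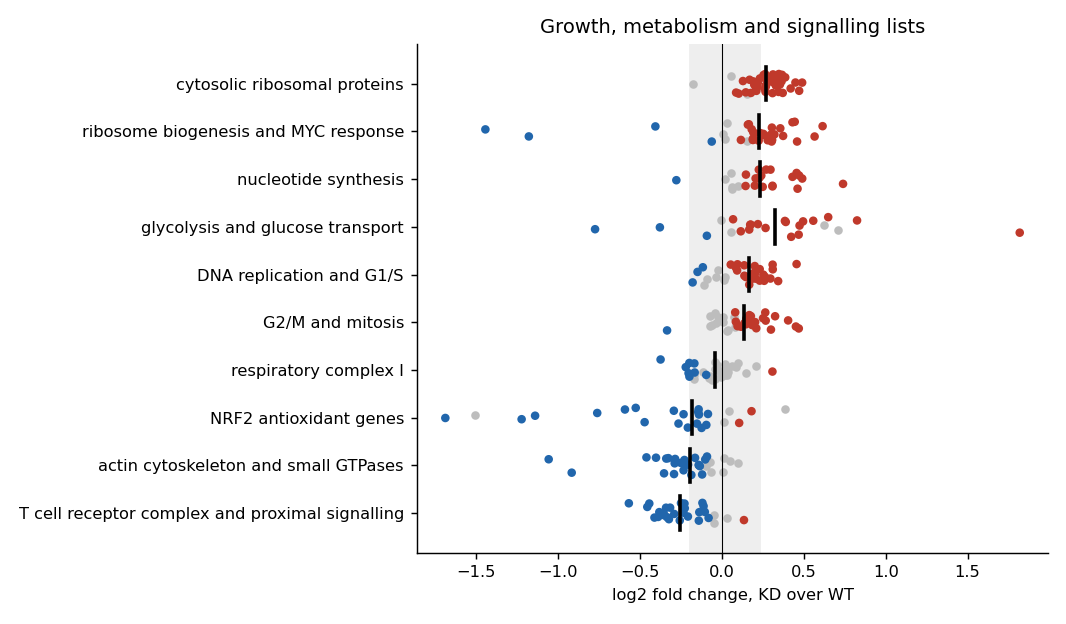
Log2 fold changes of KD over WT for the tested members of 10 gene lists. Red points were called higher, blue lower and grey not called; black bars are list medians, from 0.33 for glycolysis to -0.25 for T cell receptor genes, and the shaded band holds the middle 50% of all tested autosomal genes, from -0.19 to 0.23.

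Mitochondrial genes had small medians, and shares of falls that can be read against 18.5% over all genes, 25.9% over protein-coding genes and 45.1% at 100 CPM or more. Of 34 tested genes of respiratory complex I, 25 were not called, 8 fell (23.5%) and 1 rose (median -0.04, and from -0.063 to -0.026 with each sample left out). Of complexes III to V 12 of 34 fell (35.3%) and 2 rose, and of the TCA cycle 11 of 27 fell (40.7%) and 4 rose, with medians of -0.07 and -0.05. Without WT replicate 1, 6 TCA cycle genes fell. Pdk1, which holds back pyruvate dehydrogenase, rose from 105, 102 and 104 CPM to 138, 135 and 144 (log2 fold change 0.43). Fatty acid synthesis fell in 12 of 25 genes and rose in 5 (in 3 without KD replicate 1 or WT replicate 1), with Scd2, a desaturase, going from 1540, 1520 and 1530 CPM to 1220, 1220 and 1230. Of fatty acid oxidation, 8 fell and 4 rose of 26. Acadl, the long-chain acyl-CoA dehydrogenase, fell from 189, 190 and 195 CPM to 119, 114 and 117 (log2 fold change -0.71, SE 0.025, edgeR adjusted p 1.75e-08).

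Stress programmes differed from each other. Of 24 antioxidant genes that NRF2 controls, 18 fell (75%) and 2 rose (median -0.18). Nqo1, a quinone reductase, went from 12.0, 10.9 and 12.3 CPM to 5.43, 5.15 and 4.58 (log2 fold change -1.22), and Osgin1, Srxn1 and the ferritin gene Ftl1 had -1.14, -0.59 and -0.76. Ftl1 shares 57.7% of its subsequences with other genes. The transferrin receptor gene Tfrc rose, from 620, 617 and 627 CPM to 867, 855 and 882 (log2 fold change 0.48). Of the ATF4 response to amino acid shortage 14 of 28 genes fell (50%) and 7 rose, near the 45.1% lower among genes at 100 CPM or more. Atf4 itself went from 216, 224 and 228 CPM to 130, 132 and 124 (log2 fold change -0.79), and the amino acid transporter Slc7a5 had -0.41. Chac1, a glutathione-degrading enzyme gene named after its value had been seen, had -2.55. Chac1 did not meet the conditions of call, level and separation set for the 15 largest falls. Endoplasmic reticulum stress genes fell in 13 of 24 (54.2%) and rose in 4, and Eif2ak3, the sensor kinase PERK, went from 152, 153 and 149 CPM to 87.4, 83.4 and 81.6. Heat shock genes rose in 9 and fell in 7 of 20, and the sign of their median changed with upper-quartile scaling.

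Cell cycle genes rose by small amounts. For DNA replication and the G1/S transition 26 of 35 rose and 3 fell (median 0.17), and for G2/M and mitosis 22 of 35 rose and 1 fell (median 0.14). Tyms, thymidylate synthase, had a log2 fold change of 0.46, and Ccnf, cyclin F, went from 116, 116 and 118 CPM to 164, 159 and 162. Mki67, named after its value had been seen, was at a mean of 847 CPM in WT and 869.8 in KD and did not pass (edgeR adjusted p 0.10). Replication-dependent histones were called lower in 6 and higher in 4 of 28, but in 3 and 4 without WT replicate 3 and in 7 and 2 without WT replicate 1, and the rises were also 2 without WT replicate 2. Inhibitors of the cycle were divided, with 10 lower and 6 higher of 22. Cdkn2a, which encodes p16 and p19ARF, went from 48.2, 50.2 and 51.6 CPM to 14.5, 15.6 and 15.7 (log2 fold change -1.71, SE 0.047, edgeR adjusted p 4.01e-09). Its neighbour Cdkn2b, encoding p15, went from 28.5, 28.2 and 30.1 CPM to 11.7, 9.39 and 9.53 (log2 fold change -1.50). Both were at under 40% of their WT means. Foxo3 rose (0.32). Genes of double-strand break repair rose in 19 of 32 and fell in 3 (median 0.12), with 12 rises without WT replicate 3 and 1 fall without KD replicate 1, among them Exo1, Xrcc5 and Brca1 with 0.30, 0.23 and 0.18.

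Chromatin regulators were called in both directions. Of 22 histone demethylases 9 fell (40.9%) and 5 rose (22.7%), with a median of -0.05. The share that fell lay between the 25.9% of protein-coding genes and the 45.1% of genes at 100 CPM or more. Jarid2, a Polycomb partner with a demethylase-like domain, went from 157, 153 and 154 CPM to 88.6, 90.6 and 91.9 (log2 fold change -0.78, SE 0.025, edgeR adjusted p 1.09e-08). Of the same list Kdm4a and the Kdm5d relative Kdm5b fell with -0.43 and -0.33, and Kdm3a rose with 0.36. Genes of the complexes that methylate lysine 4 of histone H3 had 6 higher and 6 lower of 22 (27.3% each). Their median changed sign between settings. For Polycomb and DNA methylation the counts were 13 higher (39.4%) and 10 lower (30.3%) of 33. Tet1 rose there while Tet2 fell from 129, 135 and 135 CPM to 106, 105 and 107. Of 30 listed germline genes 10 were tested, 2 rose and 1, Piwil4, fell (-1.36).

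MHC class I and II genes rose in 14 of 29 and fell in 6 (median 0.10, and 0.06 without KD replicate 1). H2-Ab1, a class II chain, rose from 1.56, 1.79 and 1.53 CPM to 5.85, 4.24 and 4.77, while H2-K1, which shares sequence with other class I genes, rose less (0.26) and the nonclassical H2-T24 fell (-0.92). The dendritic cell markers Xcr1 and Itgax fell and Batf3 rose, and the summed level of their list was 14.9 to 16.1 CPM in WT and 15.4 to 16.4 in KD, and the part of such cells in these values was not tested. Sensors of foreign nucleic acid fell in 16 of 23 and rose in 2. Ddx58, the RNA sensor RIG-I, went from 152, 151 and 155 CPM to 69.8, 73.7 and 72.6 (log2 fold change -1.09), and Irf7, Zbp1 and Samhd1 had -1.47, -1.12 and -0.60.

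Among the remaining lists, metallothioneins and metal transport genes were mostly lower, with falls in 9 of 14 (64.3%) and rises in 2 (median -0.17). The other lists held fewer calls or were called in both directions. Lysosome and autophagy genes had 9 higher and 13 lower of 32, and the BCL2 family and apoptosis list 10 higher and 12 lower of 32, with the initiator caspase gene Casp8 at -0.32. For Notch, Wnt and Hedgehog signalling 5 rose and 5 fell of 18, with 3 falls without KD replicate 1 or WT replicate 2. Of 17 tested serpins 4 rose and 5 fell, of 14 exhaustion-associated transcription factors 5 rose and 4 fell, and of 12 receptor-type phosphatases 3 rose (1 without WT replicate 3) and 4 fell. Imprinted genes, which are expressed from the maternal or the paternal allele alone, had 3 higher and 3 lower of 17. Igf2r, the receptor that clears insulin-like growth factor 2, fell with -0.48, and Dlk1, a Notch-related ligand gene, rose with 2.40.

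**Figure D5:**
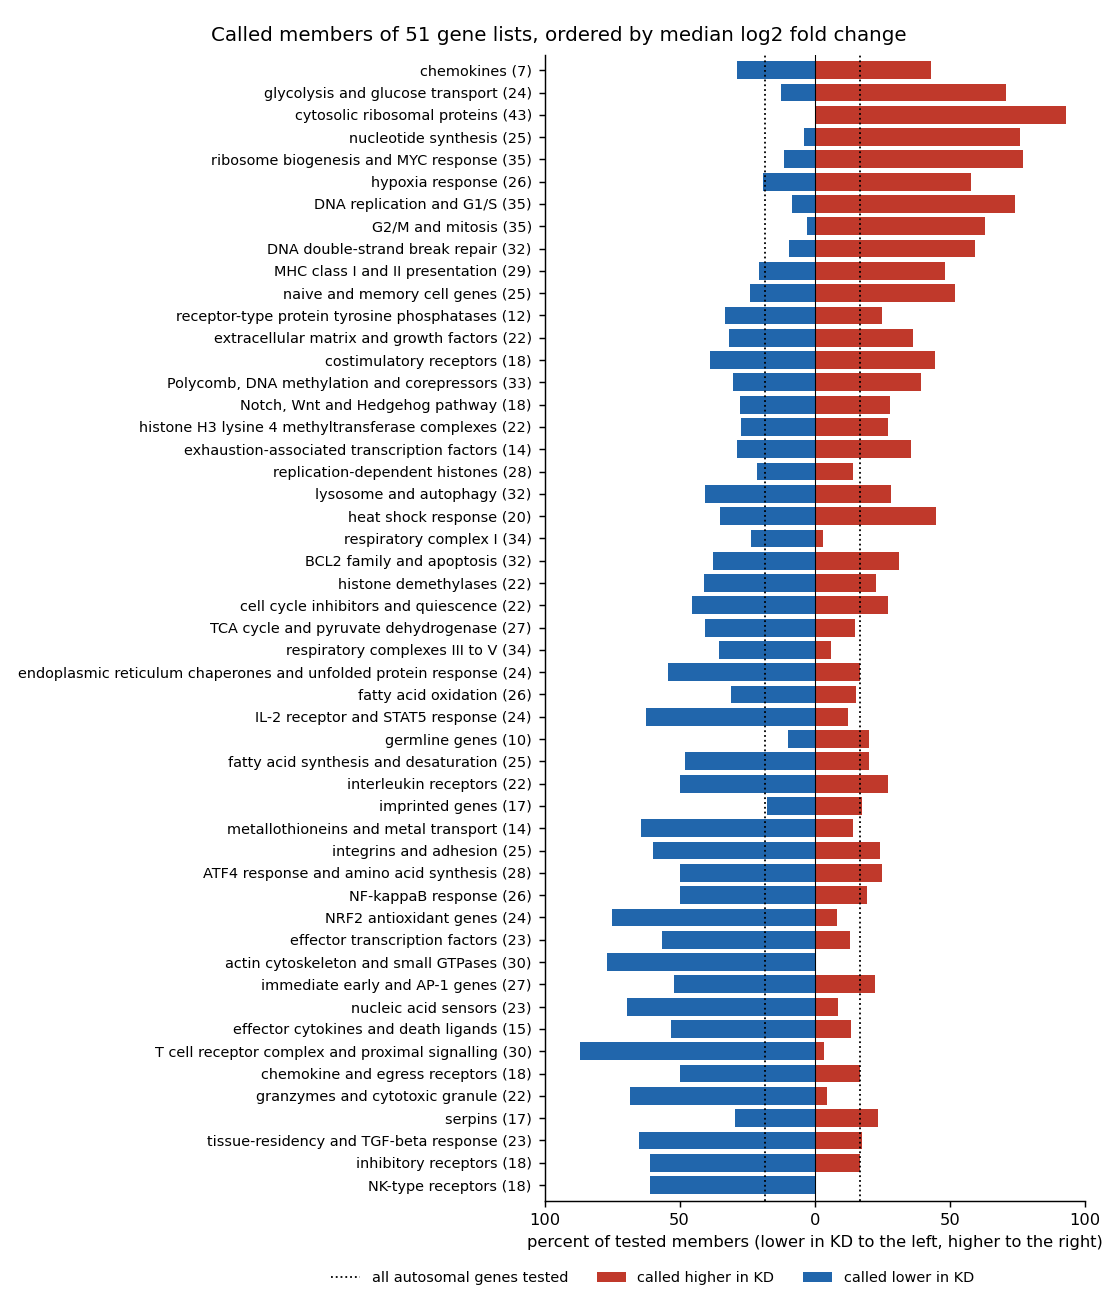
Percent of the tested members of each of 51 gene lists that were called higher (red, to the right) or lower (blue, to the left) in KD, ordered by the median log2 fold change, with the number tested in brackets. Dotted lines mark 16.7% higher and 18.5% lower over all tested autosomal genes: ribosomal protein genes reach 93% higher and T cell receptor genes 86.7% lower.

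For reference, the named genes were read in the unedited Male and Female samples, a separate table with no sample in common, in which 23.6% of autosomal genes were higher in Male and 26.3% lower. Gja5, Cdh1, Cdkn2a and Fasl, lower in KD, were higher in Male than in Female, with log2 differences of 2.42, 1.88, 1.17 and 0.86. Gja5 was scarce there, with means of 1.8 CPM in Male and 0.334 in Female. Tet1, Smo and Ptprs, higher in KD, were lower in Male, with -1.40, -0.84 and -0.58. Of the 15 largest falls 13 were higher in Male and 0 lower, and of the 10 leading falls among abundant genes all 10 were higher. Of the 15 largest rises 14 were tested there, of which 1 was higher in Male and 10 were lower. Not every gene ran in the opposite sense. Of the 10 leading rises among abundant genes 4 were higher in Male and 5 lower, and Igfbp4 did not pass the test between the sexes (0.04, edgeR adjusted p 0.54). These genes were chosen from the knockdown values, opposed directions in the 2 comparisons were already known in these data, and the values are given as a description.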

How the data were processed

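RNA of 6 samples of male OT-1 CD8+ T cells, 3 WT and 3 KD, was sequenced after ribosomal RNA depletion with a strand-marking kit, per the labels' protocols. The table the authors deposited holds raw read counts per gene. The submitters' processing notes name mm10, bcl2fastq 2.20.0, HISAT2, StringTie and DESeq2, with no roles; whether counting used strand is not given in the sources used here, so overlapping and antisense genes may share reads. Groups were taken from the titles. Gene symbols and coordinates came from GENCODE M21 (GRCm38), which held 55227 of 55487 identifiers. Genes were filtered with filterByExpr, scaled by TMM and tested with edgeR 4.0.16 (quasi-likelihood F test, Benjamini-Hochberg adjustment over all 20413 genes tested, calls at adjusted p under 0.05) in R 4.3.3. CPM are counts over TMM-scaled library sizes, and SE is the log2 fold change over the square root of F. Sequence shared with other genes was measured over 31-base subsequences, and over 10% was called uncertain.

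By rule, the text names the 15 largest called changes each way where mean log2 CPM reached 1 and the groups did not overlap. The rule also takes the 10 largest each way at 100 CPM or more, up to 4 called members per list by p, and Kdm5d. Genes marked as named after their values had been seen were added outside this rule. Members and lists were chosen with earlier results of these data known. Simulated counts with 200 of 20413 genes changed by 1 log2 unit gave 70% recovered and 6.04% false calls. Far fewer genes changed there than were called in the data, and all by the same size. Its rates therefore do not measure the calls reported here. Library totals of 78748647 to 110803318 counts limit precision mainly for scarce transcripts, and fold floors cover counting error only. Alternatives were DESeq2 1.42.0, limma-voom 3.58.1, other scalings and filters, a replicate block, a minimum change and each sample left out. Genes on the X, Y and mitochondrial chromosomes were tested and, Kdm5d apart, not reported, and some other genes are not reported here.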

Additional observations from a re-analysis of the deposited data

How the results depend on the processing

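Called autosomal genes numbered 5871 to 7099 over 15 alternative settings, against 6922. Leaving out each sample in turn gave 5871 to 6455 calls and 730 to 754 changes of at least 1 log2 unit. The latter count, 776, moved to 231 (99 higher, 132 lower) when only genes with a mean log2 CPM of 1 or more were tested, which drops scarce transcripts, and to 147 (61 higher, 86 lower) with glmTreat against a change of 1. Upper-quartile scaling shifted the median of all genes from 0.011 to 0.041 and the share of calls that were higher from 47.4% to 54.7%. With a replicate block 6453 genes were called (3017 higher, 3436 lower), 709 by at least 1, and the log2 fold change of Kdm5d, KD against WT, was -1.21. Deviations of same-numbered samples from their group means had correlations of -0.00487, -0.0399 and 0.0206, against -0.0352 to 0.041 for differently numbered samples. With 3 samples per group, such values near 0 cannot show whether the numbers pair the samples. The log2 fold change of Kdm5d lay between -1.25 and -1.18 over all settings. For the 240 other named genes, 3562 of 3580 gene and setting pairs kept direction and call, 18 lost the call (Klrb1c, Hormad2, Cd79b and Klre1 among them) and 0 reversed. Those genes were chosen for their calls in the same 6 samples, so this count does not measure how stable calls are in general. Of all 6922 calls, 82.0% (without WT replicate 3) to 86.9% (without KD replicate 2) were kept in the same direction when a sample was left out. Medians changed sign in some setting for lists near 0: exhaustion factors, Notch, Wnt and Hedgehog, heat shock, lysosome, histones, BCL2 family, H3K4 methyltransferases, germline, matrix and receptor phosphatases. Depth limits genes near the filter: of the large changes, 346 rises and 199 falls had a mean log2 CPM under 1.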
